A study of Mus musculus with 4 samples.

Results

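The genes described are 35 factors that build ribosomes in the nucleolus, taken by symbol from 1 table of ribosome footprints over 25170 genes. All 35 symbols were found, and all 35 averaged 1 FPKM or more, the level set for giving a difference, as did 9741 genes of the table, 8897 of them protein-coding. FPKM corrects footprint fragments for the length of the transcript and the size of the library. That length includes untranslated parts, so levels of different genes, and shares within a complex, can be compared only roughly. The libraries came from E14, a wild-type mouse embryonic stem cell line from the inner cell mass that is grown in serum and leukemia inhibitory factor on gelatin. 2 libraries were from cells given DMSO, the solvent, and 2 from cells given 1 µM PD, each for 3 passages. The comparison asks how Mek, the kinase above ERK, takes part in gene regulation after transcription. The labels name the compound only as PD, E14 is a single line, and nothing says that replicates were separate cultures, so the spread between libraries may be technical. A footprint level follows both the amount of an mRNA and the ribosomes on it, and in a bulk lysate fewer cells with an mRNA and less of it per cell cannot be told apart.

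Ribosomes are assembled in the nucleolus on a long precursor RNA made by RNA polymerase I. Small nucleolar ribonucleoproteins (snoRNPs) modify that RNA, with box C/D particles adding methyl groups to riboses and box H/ACA particles turning uridine into pseudouridine. The small-subunit processome folds and cuts the part that becomes the small subunit, and another set of factors, among them the PeBoW complex, matures the large subunit. Many of these genes are known targets of Myc, which binds the E-box motif CACGTG with its partner Max, and fast-dividing embryonic stem cells are known for large, active nucleoli.

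No factor passed the test of PD against DMSO. With limma across the whole table, 0 of the 35 genes passed an adjusted p of 0.05, where 0.257% of all 9741 genes did, 0.0308% higher and 0.226% lower in PD. None of those calls was a protein-coding gene, the class of all members, so the share there was 0% of 8897. Members with an unadjusted p under 0.05 also numbered 0, against 5.76% of all genes. The adjusted p-values of the members lay between 0.837 and 0.999. Voom on recovered reads also called 0 of the 26 members it could use. Differences of PD minus DMSO on the log2(FPKM + 1) scale ran from -0.81 for Fbl to 0.48 for Utp20, with 14 above 0 and 21 below. Their median was -0.09, beside -0.02 over all tested genes. The median was 0.03 without DMSO replicate 1 and 0.10 without PD replicate 2, so its direction rested on single libraries. 12 members, or 34.3%, had groups that did not overlap, against 35.8% of all tested genes and 36% of protein-coding ones. In 6 of them both PD libraries lay above both DMSO libraries, a pattern held by 17.5% of all genes, and in 6 both lay below, held by 18.3%. With 1 library against 2, groups fail to overlap far more often in any gene. Without DMSO replicate 1 the members' counts were 11 and 7, together 51.4% against 61.2% of all genes. Without DMSO replicate 2 they were 8 and 15, or 65.7% against 65.2%. Without PD replicate 1 they were 9 and 20, or 82.9% against 74.4%, and without PD replicate 2 they were 16 and 8, or 68.6% against 68.5%.

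The precision of this comparison was limited. The half-width of the 95% interval of a member's difference, from limma, ran from 0.62 to 2.12 log2 units with a median of 0.79. For 18 of the 35 members the interval lay within 1 log2 unit of 0 on both sides, and for the other 17 a change of that size in at least 1 direction was not excluded. With 2 libraries against 2, an exact two-sided permutation test of a single gene cannot give a p under 0.333.

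The PD libraries were shallower. Whole reads could be recovered from the FPKM steps for 26 of the 35 members, as the smallest whole numbers that fit within 0.005 reads. The true numbers may be multiples of these. With DMSO replicate 1 set to 1, the other DMSO library had a depth of 1.42, and the PD libraries had 0.464 and 0.201. The median member had 478.5 and 575.5 reads in DMSO and 217 and 70.5 in PD. Of markers checked against the labelled cell type, 8 of 8 pluripotency genes had at least 1 FPKM in every library. Feeder and fibroblast markers summed to 137 to 291 FPKM, mostly from Vim and Fn1, with S100a4 at 0, and Vim was 105 and 29.7 FPKM in DMSO and 207 and 185 in PD. The 8 markers of differentiated lineages summed to 0.436 to 3.52 FPKM, with Cdx2 and Gata6 at 0. Pax6, the only 1 of them averaging at least 1 FPKM, had 2.78 and 1.35 FPKM in DMSO and 0.142 and 2.61 in PD. The part of depth and of these markers in the members' values was not tested.

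**Figure D1:**
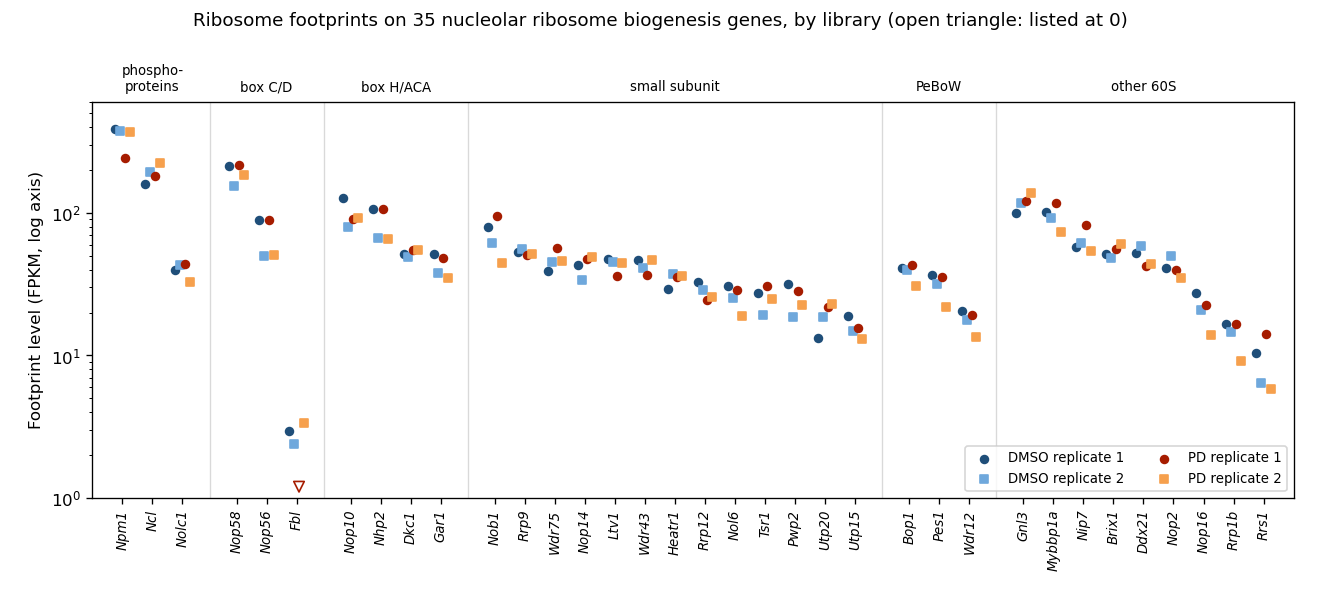
Footprint levels (FPKM, log axis) of the 35 genes in each library, grouped by role and ordered by mean; circles are replicate 1 and squares replicate 2 of each group. The genes run from Npm1, with a mean of 345 FPKM, down to Rrs1 at 9.18, and Fbl lies apart near 2.17 FPKM with PD replicate 1 listed at 0.

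As a set, the factors were well covered. Their median level was 43.2 FPKM over the 4 libraries, beside 6.33 FPKM for tested protein-coding genes, and 34 of 35 lay above that gene median. 11 of the 35 ranked above the 90th percentile of protein-coding genes. Together they took 0.85% and 0.80% of the FPKM of protein-coding genes in DMSO and 0.82% and 0.76% in PD. The lowest share was thus in PD replicate 2, the shallowest library, and the ranges of the groups overlapped.

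Because Myc sites are the best-known feature shared by promoters of ribosome biogenesis genes, the RefSeq promoter windows (GRCm38.p6, 250 bases before to 50 after the start) were searched for CACGTG, whose letters read the same on both strands. Windows were held for 29 members, and 7 of these genes, or 24.1%, contained it, beside 12.7% of 7219 tested protein-coding genes and 8.1% of all 27025 genes with a window. Counted by window, the share was 7.2% of all 32851. The 7 stretches of 30 bases are given 5′ to 3′ on the strand of the gene, with the motif in capitals.
Nop2: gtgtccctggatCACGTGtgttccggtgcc
Ltv1: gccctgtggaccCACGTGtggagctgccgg
Utp20: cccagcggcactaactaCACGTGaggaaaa
Pes1: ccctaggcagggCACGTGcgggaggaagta
Mybbp1a: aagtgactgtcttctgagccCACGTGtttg
Tsr1: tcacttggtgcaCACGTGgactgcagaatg
Wdr43: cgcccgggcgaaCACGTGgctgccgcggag
The Nop2 stretch, at chr6:125131811-125131840 on the plus strand, starts its motif 60 bases before the gene start. The others start theirs after the gene start: Ltv1 at chr10:13193092-13193121 (minus strand), Utp20 at chr10:88826765-88826794 (minus), Pes1 at chr11:3963965-3963994 (plus), Mybbp1a at chr11:72441347-72441376 (plus), Tsr1 at chr11:74898092-74898121 (plus) and Wdr43 at chr17:71616220-71616249 (plus). A match of letters is a description, not a bound site. The 7 genes with the motif had a median log2 difference of -0.07, from -0.29 for Pes1 to 0.48 for Utp20, and the 22 without it had one of -0.01, from -0.42 to 0.33. A start of C followed by 4 pyrimidines, as in mRNAs of the terminal oligopyrimidine class, was in 0 of the 29 genes' windows and in 2.9% of those of tested protein-coding genes.

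The abundant nucleolar phosphoproteins differed in level, and their differences between groups had mixed signs, each with a 95% interval that included 0. Npm1 had the highest mean of all members, whereas Nolc1, at 39.9 FPKM, lay below the members' median of 43.2. Npm1, nucleophosmin, a chaperone of the granular part of the nucleolus (chromosome 11, 33152498 to 33164142 in GRCm38.p6), had 388 and 379 FPKM in DMSO and 241 and 372 in PD. Only PD replicate 1 was clearly low, and PD replicate 2 was close to both DMSO libraries. The log2 difference of Npm1 was -0.36 (SE 0.32, limma adjusted p = 0.862), and it was -0.04 without PD replicate 1. Ncl, nucleolin, an RNA-binding protein that acts in rRNA synthesis and processing, had 161 and 194 FPKM in DMSO and 181 and 224 in PD. The highest library was in PD, but PD replicate 1 lay between the DMSO libraries. Nolc1, a scaffold that carries snoRNPs into the nucleolus, had 39.6 and 43.1 FPKM in DMSO and 43.8 and 32.9 in PD, with the lowest and the highest library both in PD.

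Of the box C/D core proteins, Nop56 and Nop58 differed more between replicates than between groups. Nop56, a core scaffold of these particles (chromosome 2, 130274367 to 130279313), had 89.7 and 49.7 FPKM in DMSO and 88.6 and 50.7 in PD. Replicate 1 of each group was thus far above replicate 2, and the group means were 69.7 and 69.6, a log2 difference of 0.00 with a 95% interval from -1.21 to 1.22. Its partner Nop58 went the same way, with 213 and 154 FPKM in DMSO and 218 and 184 in PD, resting on 1748, 1787, 830 and 305 recovered reads. Both replicate 1 libraries again lay above both replicate 2 libraries. Fbl, fibrillarin, the methyltransferase of the particle (chromosome 7, 28168893 to 28179269), had far fewer footprints, with 2.93 and 2.39 FPKM in DMSO, 0 in PD replicate 1 and 3.36 in PD replicate 2. These values rest on 13, 15, 0 and 3 recovered reads, and the 95% counting intervals were 1.56 to 5.02 FPKM in DMSO replicate 1 and 0.693 to 9.82 in PD replicate 2. In PD replicate 1 the same interval for 0 reads reached 1.79 FPKM, and 3 reads would have been 1.46 FPKM. The log2 difference of Fbl was -0.81 (SE 0.79, limma adjusted p = 0.868). It was 0.26 without PD replicate 1, -1.87 without PD replicate 2 and -2.22 with a pseudocount of 0.1 FPKM. RefSeq lists a pseudogene, Fbl-ps2, and no source used here states the treatment of reads with several matches, so the level of Fbl is uncertain, as is that of Npm1, which has processed copies.

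Of the box H/ACA proteins, 3 of 4 had overlapping groups, and Dkc1 did not. Dkc1, dyskerin, the pseudouridine synthase (chromosome X, 75095854 to 75109776), was the steadiest, at 51.5 and 49.0 FPKM in DMSO and 54.6 and 55.3 in PD. Both PD libraries were above both DMSO libraries by a small margin, and the log2 difference was 0.13 with a 95% interval from -0.50 to 0.75. Nop10, the smallest subunit, had 126 and 79.6 FPKM in DMSO and 91.1 and 91.9 in PD, so that the DMSO libraries enclosed both PD libraries. Nhp2, an RNA-binding subunit, stood at 106 and 67.1 FPKM in DMSO and at 106 and 65.2 in PD. As with Nop56, replicate 1 of each group was high and replicate 2 low. Gar1, which helps release the modified RNA, repeated this order with 51.7 and 37.6 FPKM in DMSO and 48.3 and 35.1 in PD.

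**Figure D2:**
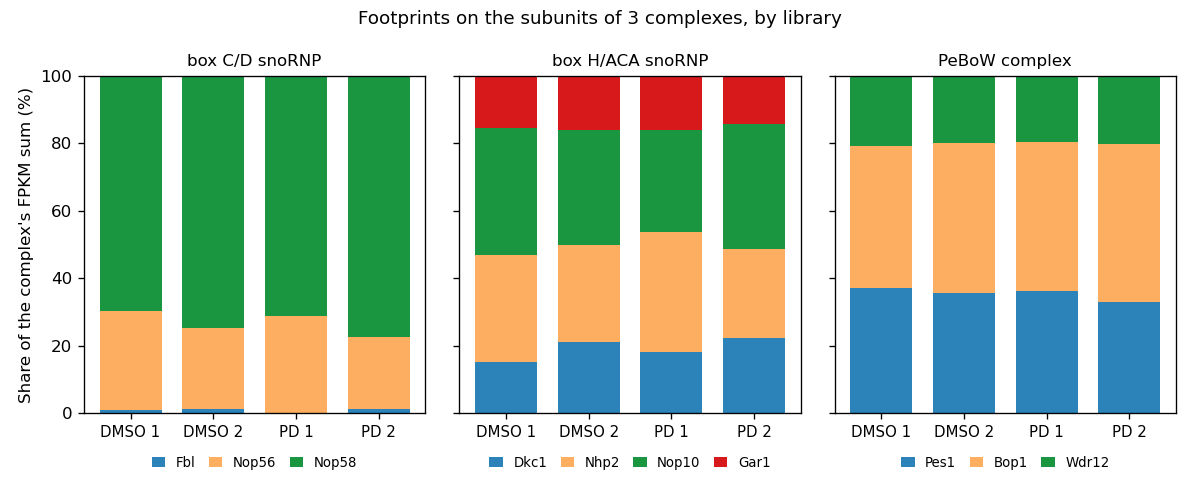
Share of each complex's summed FPKM (%) that falls on each subunit, with 1 bar per library. The PeBoW shares stay within a few percentage points in the 4 libraries. In the box H/ACA sum the shares of Nhp2 (26.3% to 35.4%), Nop10 (30.3% to 37.6%) and Dkc1 (15.3% to 22.3%) vary more, and that of Gar1 (14.2% to 16.1%) does not.

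Proportions within complexes were close in DMSO and PD. Among PeBoW subunits, Bop1 took 41.9% and 44.5% of the summed FPKM in DMSO and 44.2% and 46.7% in PD. Pes1 took 33.0% to 37.2% over the 4 libraries and Wdr12 19.6% to 20.9%. The box H/ACA sum was split less steadily, with Nop10 at 30.3% to 37.6%, Nhp2 at 26.3% to 35.4%, Dkc1 at 15.3% to 22.3% and Gar1 at 14.2% to 16.1%. In the box C/D sum, Nop58 took 69.7% to 77.3% and Nop56 21.3% to 29.4%, while Fbl took at most 1.4%. The Nop56 share was higher in replicate 1 than in replicate 2 of both groups. For every subunit of these 3 complexes the range of the DMSO libraries overlapped that of the PD libraries.

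The small-subunit factors included the largest upward difference. Utp20, a very large scaffold protein of the processome (chromosome 10, 88746607 to 88826814), had 13.2 and 18.7 FPKM in DMSO and 21.7 and 23 in PD, resting on 528, 1057, 402 and 185 recovered reads. Its DMSO mean was 15.9 ± 3.86 FPKM and its PD mean 22.4 ± 0.918 (SD, n = 2 each). Both PD libraries lay above both DMSO libraries, and the DMSO libraries differed from each other by more than the PD libraries did. Its log2 difference was 0.48 (SE 0.28, limma adjusted p = 0.837), and it was 0.25 without DMSO replicate 1. Nop14, another processome protein, had 42.9 and 33.9 FPKM in DMSO and 47.3 and 49.3 in PD, again without overlap. Wdr75, of the subcomplex that joins the nascent precursor first, had 39.1 and 45.3 FPKM in DMSO and 57.2 and 45.7 in PD, where PD replicate 2 was barely above DMSO replicate 2.

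Other proteins of that first-binding subcomplex did not share a direction. Heatr1 had 29.2 and 37.2 FPKM in DMSO and 35.4 and 36.1 in PD. Wdr43 had 46.4 and 41.0 FPKM in DMSO and 36.6 and 46.9 in PD. Utp15 had 18.9 and 14.7 FPKM in DMSO and 15.5 and 13.0 in PD. In each of these 3 genes the groups overlapped, and the log2 differences were 0.11, -0.07 and -0.22. Pwp2, of another processome subcomplex, had 31.6 and 18.6 FPKM in DMSO and 28.4 and 22.5 in PD, inside the DMSO range. Nol6, of a further one, had 30.8 and 25.2 FPKM in DMSO and 28.8 and 19.0 in PD, with PD replicate 2 the lowest library. Rrp9, a protein of the U3 snoRNP, hardly varied, with 52.9 and 55.5 FPKM in DMSO and 50.6 and 51.4 in PD. Both PD libraries were below both DMSO libraries, yet the log2 difference was only -0.09 with a 95% interval from -0.71 to 0.54.

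Factors that act later on the small subunit also had differences of mixed sign. Rrp12, needed for export of pre-ribosomes, had 32.9 and 28.7 FPKM in DMSO and 24.7 and 25.5 in PD, lower in both PD libraries, with a log2 difference of -0.28 and a 95% interval from -0.93 to 0.37. Ltv1, a late assembly factor, had 47.2 and 45.0 FPKM in DMSO and 36.3 and 44.5 in PD, and PD replicate 2 lay just under the DMSO libraries. Tsr1, a GTPase-like factor of the cytoplasmic steps, had 27.6 and 19.2 FPKM in DMSO and 30.9 and 24.7 in PD. These overlapped, with replicate 1 above replicate 2 in both groups. Nob1, the nuclease that makes the final end of the small-subunit rRNA, had 79.4 and 61.6 FPKM in DMSO and 95.4 and 44.5 in PD. Its highest and its lowest library were both in PD, and its PD replicates differed by 1.08 log2 units, more than those of any other member except Fbl and Rrs1.

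The PeBoW genes lay below their DMSO means in PD through 1 library. Bop1 had 41.4 and 39.97 FPKM in DMSO and 43.2 and 30.8 in PD. Pes1 had 36.7 and 31.9 FPKM in DMSO and 35.4 and 21.8 in PD. Wdr12 had 20.7 and 17.9 FPKM in DMSO and 19.2 and 13.4 in PD. In all 3 genes PD replicate 2 was the lowest of the 4 libraries and PD replicate 1 was within or above the DMSO range. The log2 differences were -0.15, -0.29 and -0.24, and without PD replicate 2 those of Bop1 and Pes1 were 0.09 and 0.05.

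Among the other large-subunit factors, Ddx21 and Nop16 had the largest downward differences. Ddx21, a nucleolar RNA helicase (chromosome 10, 62580247 to 62602298), had 52.3 and 58.7 FPKM in DMSO and 42.7 and 44.2 in PD, resting on 1099, 1748, 416 and 187 recovered reads. Its DMSO mean was 55.5 ± 4.54 FPKM and its PD mean 43.4 ± 1.06 (SD, n = 2 each). The groups did not overlap, and its log2 difference was -0.34 (SE 0.24, limma adjusted p = 0.837). Left-out libraries moved it only between -0.43 and -0.26. Nop16 (chromosome 13, 54584191 to 54590097) had 27.6 and 20.9 FPKM in DMSO and 22.5 and 14 in PD, where PD replicate 2 rests on 10 recovered reads and a 95% counting interval of 6.71 to 25.7 FPKM. Its groups overlapped, and the log2 difference was -0.42 (SE 0.35, limma adjusted p = 0.86) and -0.09 without PD replicate 2. Nop2, a methyltransferase of the large rRNA, had 40.8 and 49.9 FPKM in DMSO and 40.01 and 35 in PD, without overlap but with PD replicate 1 close under DMSO replicate 1.

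Gnl3 and Brix1 lay on the other side. Gnl3, nucleostemin, a GTPase known for its high level in stem cells (chromosome 14, 31012433 to 31019131), had 100.3 and 118 FPKM in DMSO and 121 and 138 in PD. Both PD libraries exceeded both DMSO libraries, DMSO replicate 2 only narrowly, and the log2 difference was 0.25 with a 95% interval from -0.43 to 0.93. Brix1, an assembly factor of the large-subunit precursor, had 51.2 and 48.6 FPKM in DMSO and 55.8 and 60.4 in PD, with a log2 difference of 0.22 and an interval from -0.42 to 0.85. Rrs1, which acts with Rpf2 in bringing the smallest rRNA into the large subunit, was the member with the fewest footprints after Fbl, with 10.4 and 6.36 FPKM in DMSO and 14.1 and 5.81 in PD. PD held both its highest and its lowest library, and PD replicate 2 rests on 10 recovered reads. Nip7 had 57.2 and 61.7 FPKM in DMSO and 82.6 and 53.8 in PD. Mybbp1a, a nucleolar protein that also binds Myb, had 101 and 91.7 FPKM in DMSO and 118 and 74.1 in PD. Rrp1b had 16.6 and 14.6 FPKM in DMSO and 16.7 and 9.08 in PD. For these 3 genes PD replicate 1 was the highest of the 4 libraries and PD replicate 2 the lowest.

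**Figure D3:**
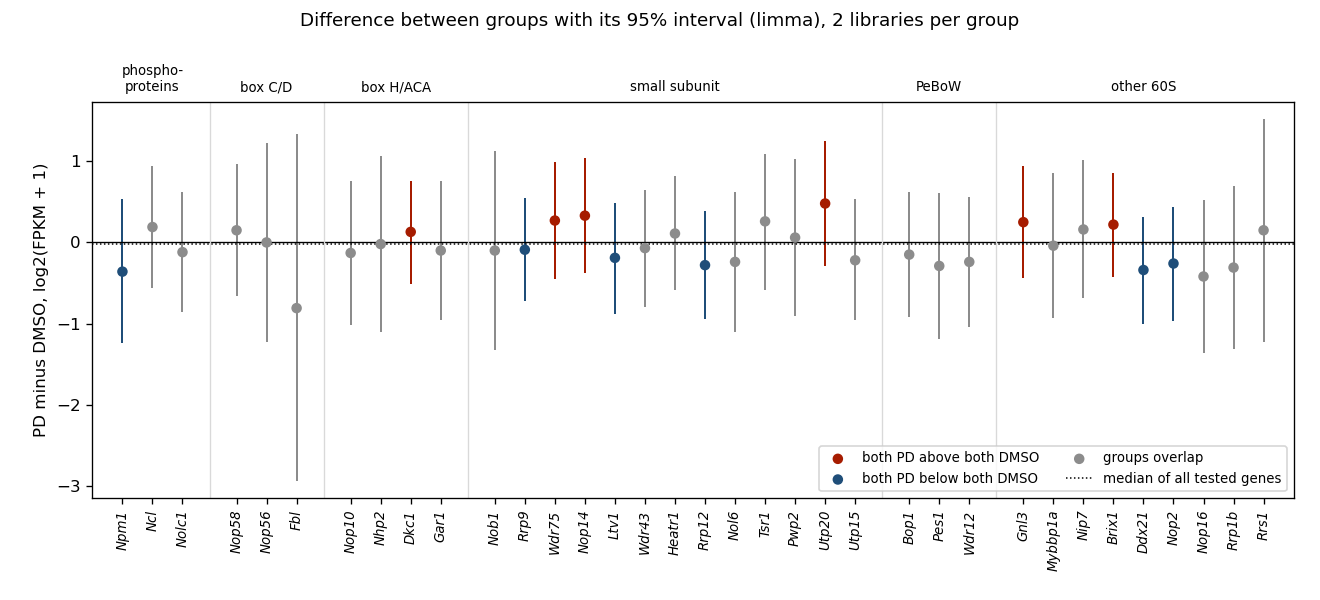
Difference of PD minus DMSO in log2(FPKM + 1) for each gene (point) with its 95% interval from limma (line), coloured by whether the 2 libraries of each group overlap; the dotted line is the median of all tested genes. Every interval includes 0, and those of Fbl, Rrs1, Nop56 and Nob1 are the widest.

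Differences between replicates were as large as those between groups. Over the 35 members, the median size of the log2 difference was 0.23 between the DMSO libraries, 0.32 between the PD libraries and 0.19 between the groups, where all tested genes had 0.37, 0.45 and 0.32. In 27 of 35 members at least 1 of the replicate differences was larger than the group difference, as it was for 76.2% of all tested genes. The 2 measures are unlike, since a difference between single libraries varies more than one between means of 2 libraries. The members leaned one way between replicates. Replicate 2 was below replicate 1 for 25 of 35 members in DMSO, against 50.6% of all genes, with a median of -0.17 beside -0.01. In PD it was below for 20 of 35, against 49.8%, with a median of -0.24 beside 0.00. 16 members were lower in replicate 2 of both groups, against 29.4% of all genes, and 6 were higher in both, against 27.8%. Replicate 2 was the deeper library in DMSO and the shallower one in PD. The lean was not particular to the members. Over the 127 tested genes of further pathway lists, described below, the medians were -0.20 in DMSO and -0.14 in PD. Of these lists, the Myc network in DMSO (0.02) and other large-subunit factors in PD (0.07) had medians above 0. No test was made of this lean.

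**Figure D4:**
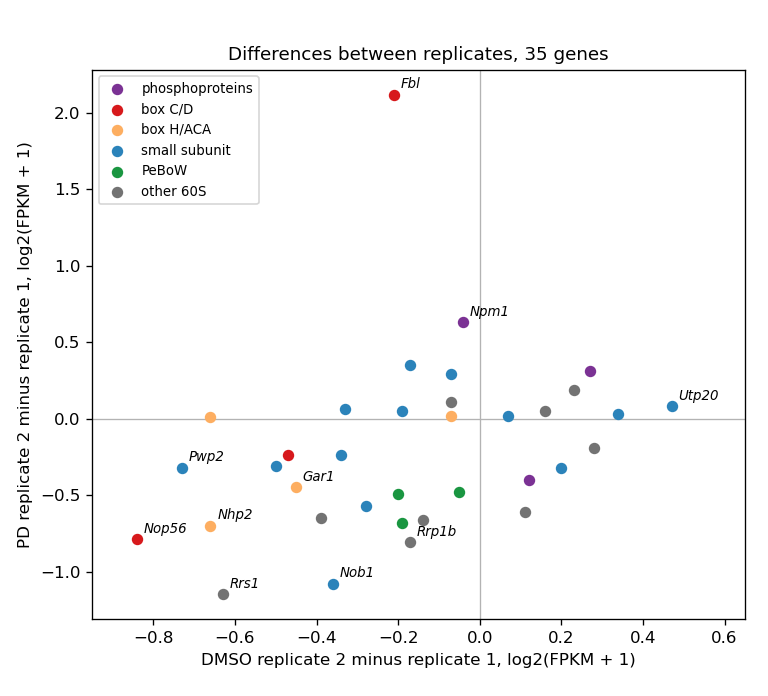
Log2(FPKM + 1) of replicate 2 minus replicate 1 in DMSO (horizontal axis) and in PD (vertical axis), with 1 point per gene, coloured by role. 16 points lie in the lower left, with Nop56, Nhp2, Rrs1 and Nob1 far out, and Fbl stands alone at the top because PD replicate 1 is listed at 0.

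Counting intervals of replicates were compared where reads allowed. Of the 23 members with at least 100 recovered reads in DMSO replicate 1, 12 had 95% counting intervals that did not overlap between the DMSO replicates, and 50.3% of the 2509 protein-coding genes of such depth did so too. In PD it was 4 of the 23, namely Pes1, Nol6, Nip7 and Nob1, against 24.2%. These intervals cover counting error only, by the way they are computed. No molecular identifiers are named, so duplicate reads may have been counted and the intervals may be too narrow.

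The rest of the pathway gave the same picture. Of 131 genes in 6 further lists, 127 were tested and 0 passed in either direction by limma, where 0.257% of all genes did, with a median log2 difference of -0.03. In 19, or 15.0%, the PD values were the higher pair without overlap, against 17.5% of all tested genes, and in 17, or 13.4%, the lower pair, against 18.3%. The 2 genes named from each list are those with its largest differences, among genes above a set level. They were picked from these same values and do not stand for their lists. The 16 genes of the RNA polymerase I machinery had a median of -0.09, which was -0.45 without DMSO replicate 2 and 0.13 without DMSO replicate 1. In this list Tcof1, the treacle protein that recruits the polymerase, had 36.4 and 30.7 FPKM in DMSO and 30.8 and 21.1 in PD. Taf1b, of the factor that loads the polymerase on rDNA, had 17.1 and 12 FPKM in DMSO and 17.6 and 21.8 in PD. The highest Taf1b library was in PD and so was the lowest Tcof1 library. Medians were 0.04 for 37 other small-subunit factors, -0.03 for 44 other large-subunit factors and 0.00 for 14 exosome genes. Krr1, of the small-subunit list, had 12.7 and 8.92 FPKM in DMSO and 6.52 and 4.93 in PD (limma adjusted p = 0.837). Rrp36, of the same list, had 11.6 and 6.38 FPKM in DMSO, 4.24 in PD replicate 1 and 0 in PD replicate 2, from 59, 46, 10 and 0 recovered reads. Both genes were lower in both PD libraries. Rpf2, the partner of Rrs1, had 53.7 and 45.6 FPKM in DMSO and 71.4 and 86.4 in PD, from 318, 382, 196 and 103 recovered reads. Its groups did not overlap, and the log2 difference was 0.66 (limma adjusted p = 0.837). Mrto4, another large-subunit factor, had 23.5 and 12.7 FPKM in DMSO and 18.9 and 3.18 in PD, the last from 3 recovered reads. Mphosph6, an exosome cofactor, had 19 and 22.04 FPKM in DMSO and 8.28 and 11.9 in PD (limma adjusted p = 0.806). Exosc6, an exosome subunit, had 14.2 and 8.54 FPKM in DMSO and 17 and 1.91 in PD, where PD replicate 2 rests on 2 recovered reads.

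Assembly factors of snoRNPs had the highest list median, 0.14 over 8 genes, which turned to -0.11 without DMSO replicate 2. Ruvbl1, an ATPase that helps to assemble box C/D particles, had 37.2 and 20.1 FPKM in DMSO and 61.6 and 47.5 in PD. Pih1d1, its partner in the same chaperone complex, had 20.2 and 18.3 FPKM in DMSO and 29.6 and 29.2 in PD. Both genes had groups that did not overlap, with log2 differences of 0.96 and 0.59, and neither passed (limma adjusted p = 0.837 for each). Among 8 tested genes of the Myc network the median was -0.11, and it was 0.12 without DMSO replicate 1. The repressor partner Mxd3 had 1.38 and 3.34 FPKM in DMSO and 8.92 and 6.85 in PD, from 7, 24, 21 and 7 recovered reads (limma adjusted p = 0.803). Max itself had 12.1 and 12.5 FPKM in DMSO and 11.9 and 1.62 in PD.

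Several members also have snoRNA genes between their start and end. Strand and exon bounds were not used to place them. By RefSeq coordinates, 7 of the 35 members, or 20.0%, contained at least 1 annotated snoRNA gene, against 2.44% of 8863 tested protein-coding genes. The 7 were Ncl, Nop56, Nop58, Dkc1, Wdr43, Gnl3 and Tsr1. Reads on a snoRNA are no sign of translation, and the short length of these genes raises their FPKM. Snord69 in Gnl3 had 46, 71, 17 and 13 recovered reads, and Snord82 in Ncl had 23, 44, 9 and 6, in the order DMSO 1, DMSO 2, PD 1 and PD 2. Their log2 differences were 0.02 and -0.15. Snord19, also in Gnl3, had 22, 76, 3 and 3 reads in that order, and Snord57 in Nop56 had 5, 20, 6 and 11 (limma adjusted p = 0.837 for each). Snora75 in Ncl had 69, 74, 15 and 0 reads, with a log2 difference of -6.15 (limma adjusted p = 0.837). Snord91a in Tsr1 was listed at 1382 and 3676 FPKM in DMSO and at 0 in both PD libraries, whose depths were 0.464 and 0.201. It was the single tested snoRNA of these genes that passed, with a log2 difference of -11.14 (limma adjusted p = 0.00847). No whole reads could be assigned to it, and 0 genes of the table passed when DMSO replicate 1 or DMSO replicate 2 was left out. Tsr1, the gene that contains Snord91a, had a log2 difference of 0.26. Nop56, Nhp2, Dkc1, Bop1, Wdr12, Gnl3, Mybbp1a and Tsr1 also overlap another protein-coding gene by RefSeq coordinates, and no use of strand in counting is stated, so part of their reads could belong to the neighbour.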

How the data were processed

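Ribosome-protected RNA of 4 libraries was sequenced after RNase I digestion, size-exclusion purification, rRNA depletion and small RNA library preparation, per the labels' protocols. The authors deposited FPKM with confidence bounds and a status per gene, per the file headers; FastQC, Trimmomatic, Bowtie2, STAR, Cufflinks and mm10 are named in the submitters' processing notes, without versions. 1 gene with a failed status was left out. Genes averaging 1 FPKM or more were analysed as log2(FPKM + 1) by limma 3.58.1 under R 4.3.3 (variance trend, group as the only term, 2 residual degrees of freedom), with Benjamini-Hochberg adjustment over all 9741 genes. Library steps were read from the commonest FPKM ratios. Recovery of whole reads succeeded for 69.7% of 10161 genes that had a value above 0 in every library, and for 0.3% when wrong steps were used. The fit and the recovery were tested on simulated data. Gene coordinates and promoters are from RefSeq (GRCm38.p6). The deposited confidence bounds of the 4 libraries shared a common range for 35 of 35 members and for 93.5% of tested genes. Alternatives were other pseudocounts, filters and scalings, protein-coding genes alone, a replicate block, voom and leaving out each library. Values in each library were given for all members, and full statistics for the 5 with the largest differences. Of each further list at most 2 genes were named. These had the largest absolute log2 differences among genes averaging at least 5 FPKM. The members and lists were chosen with earlier results of these data known. Protein sequences were not used here.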

Additional observations from a re-analysis of the deposited data

How the results depend on the processing

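No member passed under any of the 13 alternatives, and the lowest limma adjusted p was 0.516. Fbl alone had an unadjusted p under 0.05, when PD replicate 2 was left out. 17 members changed sign in no alternative that held them, 8 above and 9 below 0. Of these, Ncl, Npm1, Gnl3, Tsr1 and Wdr12 had no value with voom. Tsr1 was at 0.00 without DMSO replicate 2, and Wdr12 was at -0.00 without PD replicate 2. Quantile normalization turned Nhp2 (0.07) and Mybbp1a (0.07) and put the median over all tested genes at 0.04. It gave 3 members below without overlap (15.7% of all genes), a median of 0.03 for other large-subunit factors and a PD replicate difference of -0.17. The DMSO replicate difference was -0.11 after rescaling over protein-coding genes. With voom on recovered reads the medians were -0.18 for the exosome and 0.17 for the Myc network. Over all tested genes, 3 passed higher and 22 lower in PD, against 0 and 0 with protein-coding genes alone, after rescaling and with voom (609, 592 and 387 genes at an unadjusted p under 0.05). The rescaled values also held protein-coding genes alone, and none of the 25 calls was one, so those calls could not recur in either setting. Voom held only 6552 genes with recovered reads, so calls without such reads could not recur there. These zeros thus do not show an effect of scaling or model. Leaving out single libraries gave 0 to 27 higher and 0 to 20 lower.

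With 1 library left out, the members' median ran from -0.17 to 0.10. Counts without overlap ran from 8 to 16 above, against 29.8% to 35.9% of all genes. They ran from 7 to 20 below, against 31.4% to 38.6%. Together they were 51.4% to 82.9% of members against 61.2% to 74.4% of all genes. List medians ran from -0.45 to 0.13 for RNA polymerase I, from -0.05 to 0.09 for other small-subunit factors, from -0.11 to 0.26 for snoRNP assembly and from -0.31 to 0.12 for the Myc network. The log2 differences that changed sign ran from -1.87 to 0.26 for Fbl, -0.09 to 0.38 for Nop58, -0.46 to 0.20 for Nop10, -0.37 to 0.33 for Nhp2, -0.32 to 0.13 for Gar1, -0.39 to 0.09 for Bop1, -0.63 to 0.05 for Pes1, -0.25 to 0.10 for Wdr43, -0.32 to 0.08 for Nolc1, -0.53 to 0.05 for Nol6, -0.72 to 0.10 for Rrp1b, -0.43 to 0.72 for Rrs1, -0.14 to 0.47 for Nip7, -0.37 to 0.29 for Mybbp1a, -0.31 to 0.42 for Pwp2, -0.06 to 0.28 for Heatr1 and -0.64 to 0.44 for Nob1. Nop56, at 0.00 with all libraries, ran from -0.41 to 0.42. A lone library was assumed to vary like the other group. The cause of these changes was not tested.

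With the replicate number as a block, 2 genes passed higher and 17 lower and 0 members passed, and no other call changed. The labels do not say that a number pairs libraries, and deviations of same-numbered libraries correlated at 0.10 across all tested genes and at 0.20 across protein-coding genes. Among the 26 members with recovered reads, Fbl, Nop16 and Rrs1 had the fewest in PD replicate 2, with 3, 10 and 10.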
